A study of Arabidopsis thaliana with 20 samples.

Results

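This account covers the 230 nuclear peaks of N6-methyladenosine (m6A) with the highest ratios in chromatin-associated RNA of Arabidopsis seedlings. They were chosen by measured values: of the 2291 peaks in the deposited m6A table, 2247 lie on chromosomes 1 to 5, and the 230 with the highest mean over all 10 immunoprecipitated (IP) libraries were taken. Their levels are therefore a description and carry no test. The study compared 5 genotypes, all in the Col-0 background, as whole seedlings 10 days old. The line called del-cIDR here carries OE ALKBH5 del-cIDR, overexpressed human ALKBH5 from which the region named cIDR is deleted; the labels do not spell that name out. The FL line carries OE ALKBH5 FL, the full-length enzyme. The inactive del-cIDR line (OE ALKBH5 del-cIDR H204A) and the inactive FL line (OE ALKBH5 FL H204A) carry the same proteins with the H204A substitution, which the study describes as inactive mutants. Col-0 is the untransformed wild type, so every line, active or inactive, also differs from it by carrying a transgene. Promoter, integration site and number of independent lines per construct are not given in the sources used here. Each genotype had 2 IP and 2 input libraries.

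m6A is the most common internal modification of messenger RNA. In plants it is written in the nucleus by a complex built around MTA and MTB, read by YTH-domain proteins of the ECT family, and removed by demethylases related to ALKBH5. It is typically found near stop codons and in the last exon of a transcript. ALKBH5 is an iron- and oxoglutarate-dependent enzyme of vertebrates that removes the methyl group from m6A in RNA. In MeRIP-seq an antibody pulls down fragments of RNA that carry m6A, and the amount recovered at a peak is set against a reference. Chromatin-associated RNA is the fraction that stays with chromatin when nuclei are extracted, and holds nascent transcripts and RNA retained at its locus. Because whole seedlings were used, fewer cells of a type and less RNA per cell cannot be told apart.

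The m6A values are deposited ratios, and all 10 IP libraries share a value of 10.6 for the m6A spike-in. Input values are a deposited signal per gene. Neither table holds read counts, so depth is unknown and no counting interval can be given. The labels do not say what separates the libraries of a group, so the p-values speak only to the spread between libraries, which may be technical. For m6A that spread was in effect shared by peaks of like level and not each peak's own. The standard error (SE) against Col-0 was 0.575 on DRL1 and 0.572 on PLDDELTA, whose Col-0 libraries had SDs of 28.8 and 3.12. Several IP libraries stood apart from their partners. Over the 230 peaks the median log2 difference of replicate 2 from replicate 1 was 1.09 in FL, 0.80 in inactive del-cIDR, 0.35 in inactive FL and 0.25 in Col-0, and -0.66 in del-cIDR. Input libraries differed by at most 0.08 over the genes under these peaks. Of 8 tissue markers in the input, the shoot genes CAB1, a chlorophyll-binding protein, and RBCS1A, a Rubisco subunit, had signals of 75212 to 127082 and 6791 to 12391 over the 10 libraries. The root genes PHT1;1, EXPA7 and SCR had 60.4 to 102, 12.7 to 43.7 and 342 to 545. The floral organ genes AP3 and PI had 0.907 to 20.4 and 15.1 to 46.5, and the seed storage gene CRA1 had 319 to 709, so no marker was at 0. The human transgene is not analysed here.

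Strong peaks were high in every genotype, and lower in the 4 ALKBH5 lines than in Col-0. The median m6A ratio over the 230 peaks was 8.59 and 5.42 in del-cIDR, 6.61 and 13.4 in FL, 8.11 and 14.1 in inactive del-cIDR, 9.26 and 11.96 in inactive FL, and 15.9 and 18.7 in Col-0. The Col-0 libraries were the highest of the 10. Both del-cIDR libraries lay below both inactive FL libraries, and the lines otherwise overlapped each other. The other 2017 nuclear peaks had medians of 2.42 and 1.53 in del-cIDR, 2.06 and 4.31 in FL, 2.32 and 4.24 in inactive del-cIDR, 2.78 and 3.32 in inactive FL, and 6.26 and 6.73 in Col-0. The ratio of these medians, strongest over other, was 3.54 ± 0.00146 in del-cIDR, 3.16 ± 0.0724 in FL, 3.41 ± 0.124 in inactive del-cIDR, 3.46 ± 0.192 in inactive FL and 2.66 ± 0.164 in Col-0 (SD, n = 2 each). They held 27.9% ± 0.0120 of the summed nuclear ratio in del-cIDR, 26.1% ± 0.466 in FL, 27.6% ± 0.0993 in inactive del-cIDR, 27.5% ± 1.02 in inactive FL and 23.2% ± 1.25 in Col-0. In both measures the 8 libraries of the lines lay above the 2 Col-0 libraries, without overlap. The peaks were chosen on the mean of these same 10 libraries, 8 of them from the lines. That choice favours peaks that are high in the lines, so this separation is a description and carries no test.

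**Figure D1:**
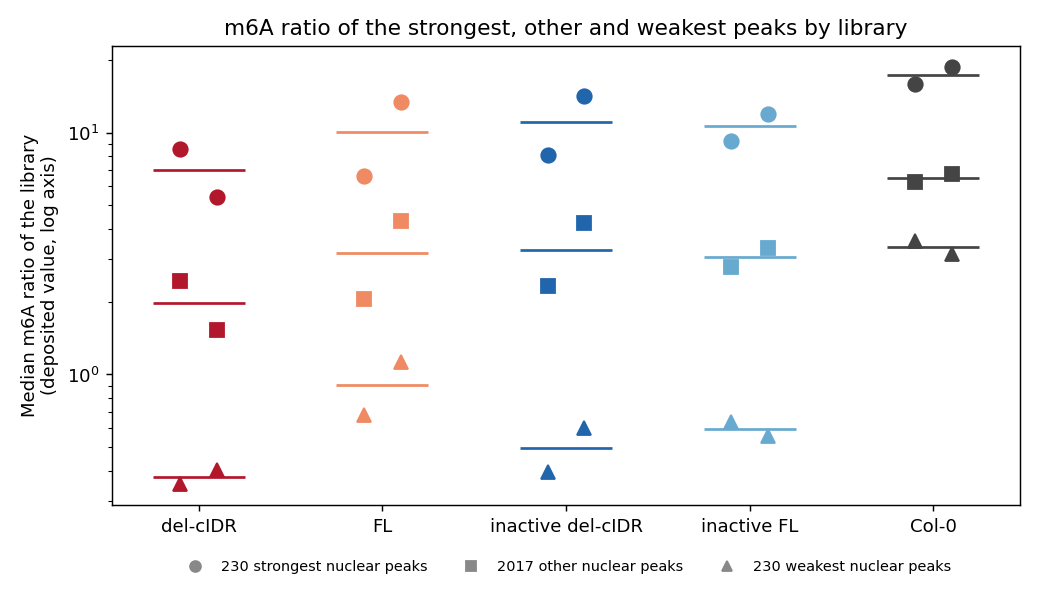
Median m6A ratio (deposited value, log axis) of each IP library in the 5 genotypes, for the 230 strongest (circles), the 2017 other (squares) and the 230 weakest (triangles) nuclear peaks, with a line at the mean of the 2 libraries. The strongest peaks run from 5.42 to 18.7, and the gap between Col-0 and the lines widens from the strongest peaks to the weakest. All sets were chosen on the mean of these same libraries.

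Mean ratios of the 230 peaks ran from 35.8 down to 8.88, with a median of 11.1, against a median of 3.70 for the other nuclear peaks. Only 11 had a mean of 20 or more, and 160 had 10 or more. The boundary fell in a dense part of the range. Just inside lay peaks on AT5G13240 (8.92), AT5G15610 (8.90) and AT3G11130, a clathrin heavy chain (8.88). Just outside lay peaks on AT2G25730 (8.82), ZW18 (8.82) and SR45a, a splicing regulator (8.78). When each genotype was ranked by itself, 182 of the 230 were among the top 230 nuclear peaks of del-cIDR, 183 of FL, 199 of inactive del-cIDR, 200 of inactive FL and 192 of Col-0. A total of 113 were in the top 230 of all 5 genotypes. The lowest place any of them took was 1702 in Col-0, for a peak at AT2G13851 described below.

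The highest peak lay on ARA7 (chromosome 4, 10687264 to 10687490), which encodes a RAB5 GTPase of endosomes. Its m6A ratio was 18.7 and 11.1 in del-cIDR, 15.6 and 44.6 in FL, 23.2 and 61.3 in inactive del-cIDR, 43.1 and 33.00 in inactive FL, and 65.6 and 42.00 in Col-0. Both del-cIDR libraries were below both Col-0 libraries, at a log2 fold change of -1.83 (SE 0.57, adjusted p = 0.00403), while FL and inactive del-cIDR each had 1 low and 1 high library. A peak on AT3G10810 (chromosome 3, 3381695 to 3381972) came next, with 28.2 and 14.2 in del-cIDR, 23.7 and 51.99 in FL, 21.6 and 51.6 in inactive del-cIDR, 26.1 and 37.9 in inactive FL, and 63.7 and 33.2 in Col-0. Both del-cIDR libraries were below both Col-0 libraries, the other lines overlapped Col-0, and the log2 fold change in del-cIDR was -1.18 (SE 0.57, adjusted p = 0.0491). The third lay on PLDDELTA (chromosome 4, 16955582 to 16955818), a phospholipase D bound to the plasma membrane, with 23.7 and 16.5 in del-cIDR, 16.7 and 29.7 in FL, 14.9 and 26.7 in inactive del-cIDR, 30.8 and 33.96 in inactive FL, and 43.99 and 39.6 in Col-0. All 8 libraries of the lines were below both Col-0 libraries on PLDDELTA, yet the difference did not pass the test in any line, with adjusted p = 0.0755 in del-cIDR.

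Among the rest of the 12 highest, the peak on DRL1 (chromosome 4, 16834006 to 16834266), a reductase of pollen wall synthesis, had 10.4 and 7.21 in del-cIDR, 12.6 and 21.6 in FL, 24.6 and 23.4 in inactive del-cIDR, 18.3 and 30.3 in inactive FL, and 16.8 and 57.6 in Col-0. The Col-0 libraries lay far apart here. Del-cIDR was called lower at -1.79 (SE 0.57, adjusted p = 0.00501), but this SE is shared by peaks of like level and does not reflect that gap. AT3G51140 was called in del-cIDR at -1.24 (SE 0.57, adjusted p = 0.0403), as was AT3G01845, a long non-coding RNA, at -1.34 (SE 0.57, adjusted p = 0.0284). AT1G29700, AT1G20400 and ATERDJ3B, a J-domain co-chaperone of the endoplasmic reticulum, had log2 fold changes of -0.57, -0.99 and -0.98 in del-cIDR against Col-0, with adjusted p = 0.321, 0.0954 and 0.0993. The other 3 of the 12 belong to a block of pseudogenes on chromosome 4. AT4G08115 was called lower in del-cIDR at -1.36 (SE 0.57, adjusted p = 0.0263) and AT4G08114 at -1.18 (SE 0.57, adjusted p = 0.04998), whereas AT4G08113 had -1.17 (SE 0.57, adjusted p = 0.0513).

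**Figure D2:**
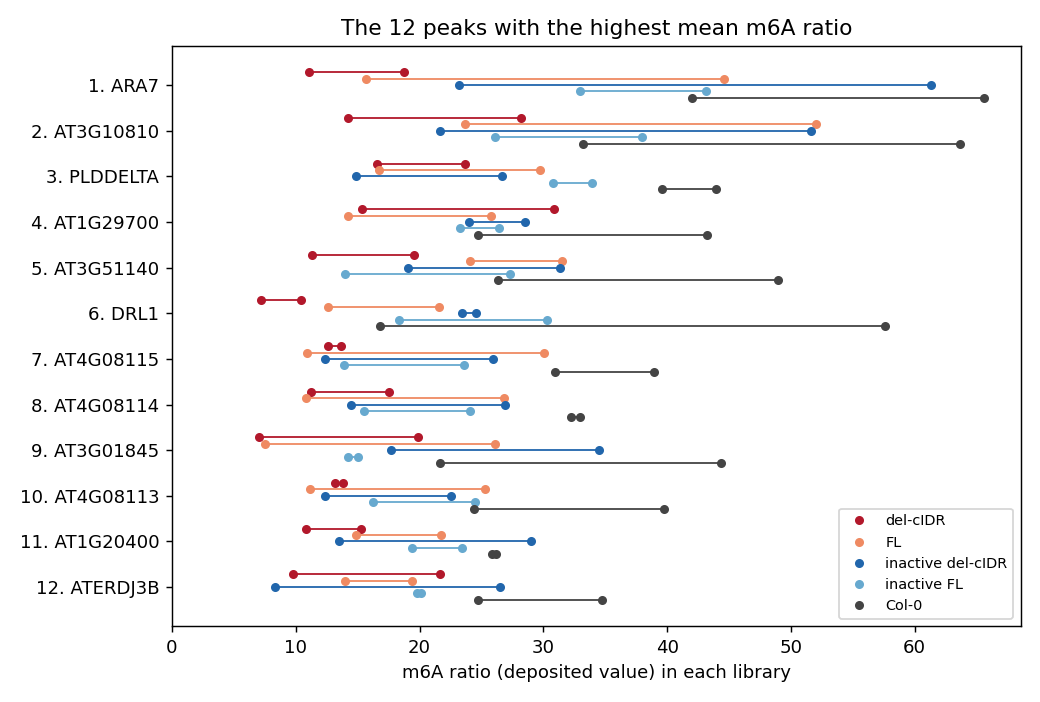
m6A ratio in each library (horizontal axis, from 0) for the 12 peaks of highest mean, 1 row per peak with the 5 genotypes drawn in order from del-cIDR at the top to Col-0 at the bottom; points are single libraries joined by a line. On ARA7 the del-cIDR libraries (18.7 and 11.1) lie left of Col-0 (65.6 and 42.0), while FL and inactive del-cIDR each span a wide range.

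Most of the strongest peaks sat on protein-coding genes, at 1 end of the gene. Of the 230, 207 had at least 50% of their length in exactly 1 gene of the gene table, 12 in 2 or more genes and 11 in none. The 207 fell on 203 genes. The single genes under these peaks were protein-coding for 182 peaks (79.1% of the 230, against 87.4% of the other nuclear peaks), pseudogenes for 23, a long non-coding RNA for 1 and another RNA for 1. The deposited table runs through the chromosomes once and then starts again, and gives no strand. Position was counted from the lower coordinate of the gene, so transcript start and end are not told apart. In the first block of the table, 64 of 91 strongest peaks on coding genes (70.3%) were centred in the first 10% of the gene, against 54.9% of 1031 other peaks. In the second block 66 of 91 (72.5%) were in the last 10%, against 56.6% of 731. Medians were 7.0% and 93.9% for the strongest peaks and 9.38% and 90.9% for the others. The 230 weakest nuclear peaks had medians of 39.4% and 40.6%. No test was made of these shares.

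Protein-coding host genes of the strongest peaks had a median length of 4228 bases, against 3508 for hosts of other nuclear peaks and 2310 for all coding genes of the input table. Per kilobase of gene, the mean input signal of these hosts had a median of 129, with quartiles of 88.7 and 209.6. Coding hosts of the other nuclear peaks had a median of 163, and all coding genes 54.4. Chromosome 1 held 57 of the 230 peaks, chromosome 2 held 31, chromosome 3 held 47, chromosome 4 held 46 and chromosome 5 held 49.

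A smaller class of strong peaks was broad and lay on pseudogenes. Widths ran from 201 to 9329 bases with a median of 325.5, against 290.0 for the other nuclear peaks. With a boundary of 500 bases, chosen after the widths were seen, 38 of the 230 were broad (16.5%, against 6.64% of the others), and 28 reached 1000 bases (12.2%, against 1.78%). Of the 230 weakest nuclear peaks, 32 (13.9%) were also broad and 14 (6.09%) reached 1000 bases. Among the 38 broad peaks, 24 had at least 50% of their length in a pseudogene, 9 lay in no gene by that measure, 4 were on a coding gene and 1 on another RNA. Among the 192 narrower ones 3 lay on pseudogenes and 178 on coding genes. In all, 27 of the strongest peaks were on pseudogenes (11.7%), against 38 of 2017 others (1.88%). In Arabidopsis annotation many pseudogenes are remnants of transposable elements, but the gene table does not give the kind.

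**Figure D3:**
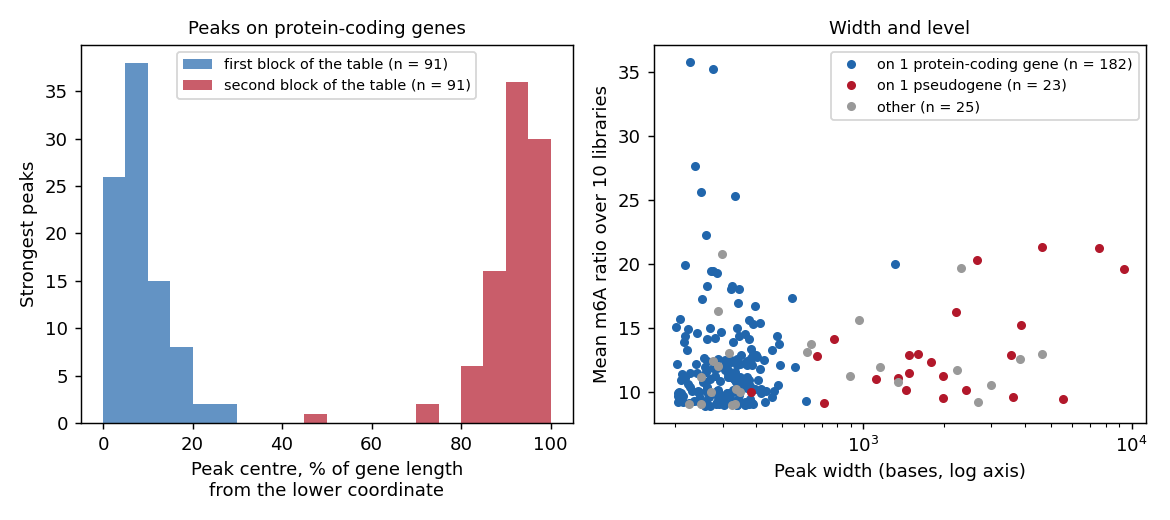
Left, number of strongest peaks on protein-coding genes by the position of the peak centre (percent of gene length from the lower coordinate), for the first and second block of the deposited table, 91 peaks each. Right, peak width (bases, log axis) against the mean m6A ratio over 10 libraries for all 230 peaks, coloured by the host gene; the widest peak spans 9329 bases and lies on a pseudogene.

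The longest run of strong peaks was on chromosome 4, between 5046531 and 5084466. All 9 peaks of the table in this stretch were among the 230, at ranks from 7 to 180, and together covered 92.4% of it. Of these, 7 lay on pseudogenes (AT4G08109, AT4G08112, AT4G08113, AT4G08114, AT4G08115 and both peaks on AT4G08100) and 2 in no gene. Over the 9 peaks the median m6A ratio was 12.7 and 9.61 in del-cIDR, 10.8 and 25.3 in FL, 11.4 and 21.9 in inactive del-cIDR, 13.2 and 22.9 in inactive FL, and 24.4 and 32.2 in Col-0. Both libraries of del-cIDR, inactive del-cIDR and inactive FL were below both Col-0 libraries, while FL replicate 2 overlapped Col-0. In del-cIDR 6 of the 9 were called lower, where 79.8% of all 2291 peaks and 143 of the 230 were. Its log2 fold changes were -2.04 to -0.77 over all 9. In inactive del-cIDR 1 of the 9 was called (24.1% of all peaks), and 0 in FL (22.7%) and inactive FL (21.8%). The narrowest member, on AT4G08100 (chromosome 4, 5080006 to 5080388), had 3.88 and 5.70 in del-cIDR, 4.55 and 13.5 in FL, 2.62 and 7.93 in inactive del-cIDR, 9.68 and 9.39 in inactive FL, and 19.7 and 22.3 in Col-0. It was called in del-cIDR at -2.04 (SE 0.58, adjusted p = 0.00164) and in inactive del-cIDR at -2.06 (SE 0.58, adjusted p = 0.00294). The widest of all 230 peaks, on AT4G08109 (chromosome 4, 5048975 to 5058304), had 14.2 and 9.61 in del-cIDR, 11.2 and 26.6 in FL, 12.4 and 21.9 in inactive del-cIDR, 14.5 and 22.9 in inactive FL, and 27.3 and 35.6 in Col-0, and was called in del-cIDR at -1.38 (SE 0.57, adjusted p = 0.0253). The peak in no gene at the start of the run (chromosome 4, 5046531 to 5048844) was called at -1.42 (SE 0.58, adjusted p = 0.0217), whereas another in no gene (chromosome 4, 5058584 to 5059226) had -0.77 (SE 0.58, adjusted p = 0.191). Reads from repeated sequence can map to several copies, and how such reads were counted is not given in the sources used here, so values of these loci are uncertain.

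Strong peaks lay within 5000 bases of each other in 9 runs that held 26 of the 230. Besides the run of 9 there was 1 of 3 on chromosome 5 (12970472 to 12975459, on AT5G34800 and AT5G34810) and 7 pairs. Each of 4 pseudogenes, AT4G08100, AT5G27895, AT5G34800 and AT5G35935, carried 2. The pair on AT5G35935 moved closely together: the first had 8.14 and 3.62 in del-cIDR, 4.36 and 18.7 in FL, 7.67 and 14.9 in inactive del-cIDR, 6.65 and 9.10 in inactive FL, and 23.2 and 15.9 in Col-0, and the second had 9.09 and 4.16 in del-cIDR, 3.79 and 17.7 in FL, 7.19 and 15.5 in inactive del-cIDR, 6.21 and 8.61 in inactive FL, and 22.99 and 15.7 in Col-0. Both were called lower in del-cIDR than in Col-0, at -1.72 (adjusted p = 0.00702) and -1.54 (adjusted p = 0.0143). The pair on AT5G34800 was also called lower in del-cIDR, at -1.53 and -1.69 (adjusted p = 0.0147 and 0.00803). On AT5G27895 both were called in del-cIDR, at -1.35 and -1.43 (adjusted p = 0.0282 and 0.0216), and the first also in inactive del-cIDR, at -1.47 (SE 0.58, adjusted p = 0.0465). Broad peaks outside these runs included AT3G28945 (5562 bases), which had -1.14 (SE 0.58, adjusted p = 0.0594) in del-cIDR, and a peak of 4643 bases with under 50% in either AT4G16900 or AT4G16910, which had -1.17 (SE 0.58, adjusted p = 0.0531). Peaks within 1 gene share their transcripts and are not independent.

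Against Col-0, most of the strongest peaks fell in del-cIDR and few passed the test in the other lines. In del-cIDR 143 of the 230 were called lower and 0 higher, against a background of 79.8% called lower over all 2291 peaks. The median log2 fold change was -1.28 for the 230 and -1.52 for all peaks. In FL 6 of the 230 were called lower (background 22.7%), with a median of -0.81 against -1.0 for all peaks. In inactive del-cIDR 5 were called lower (background 24.1%), with medians of -0.64 and -0.95. In inactive FL 1 was called lower (background 21.8%), with medians of -0.69 and -0.97. None was called higher in any line by limma. At an unadjusted p under 0.05, 154 of the 230 differed in del-cIDR (82.8% of all peaks did), 49 in FL (44.1%), 19 in inactive del-cIDR (39.1%) and 16 in inactive FL (40.9%). The 4 comparisons share the Col-0 libraries. All libraries of the line lay below both Col-0 libraries for 212 of the 230 peaks in del-cIDR (98.0% of all peaks), 155 in FL (82.2%), 135 in inactive del-cIDR (81.0%) and 184 in inactive FL (91.4%).

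Counts and fold changes at other levels are given beside these as a description. Among the 230 weakest nuclear peaks 228 were called lower in del-cIDR (median -2.12), 201 in FL (-1.48), 220 in inactive del-cIDR (-1.96) and 219 in inactive FL (-1.80). The rule averages all 10 libraries, those compared included. The 230 highest peaks were also taken from the 6 libraries outside each contrast. For a contrast with Col-0 these all belong to the other ALKBH5 lines, which were also lower than Col-0. Such a choice favours peaks that fell little in the lines, so it is not independent of the comparison. The same holds for the level classes below. The peaks so chosen shared 211 with the 230 in del-cIDR, and 136 were called lower. Their median was -1.26 against -1.55 for the remaining nuclear peaks. In FL 5 of such 230 were called, with medians of -0.80 and -1.02. In inactive del-cIDR 4 were called (-0.62 and -0.97), and in inactive FL 1 (-0.68 and -1.0). Sorted into 10 classes by the level in libraries outside the contrast, peaks had median log2 fold changes in inactive del-cIDR of -2.0 in the lowest class and -0.62 in the highest, in FL of -1.50 and -0.80, and in inactive FL of -1.88 and -0.68. In del-cIDR the median was -2.16 in the lowest class, between -1.39 and -1.44 in the fifth to ninth, and -1.26 in the highest. The standard error also moved with level, with a median of 0.30 in the lowest class and 0.58 in the highest in all 4 comparisons, so that the same fold change is called less easily at a strong peak. Its part in the counts was not tested.

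**Figure D4:**
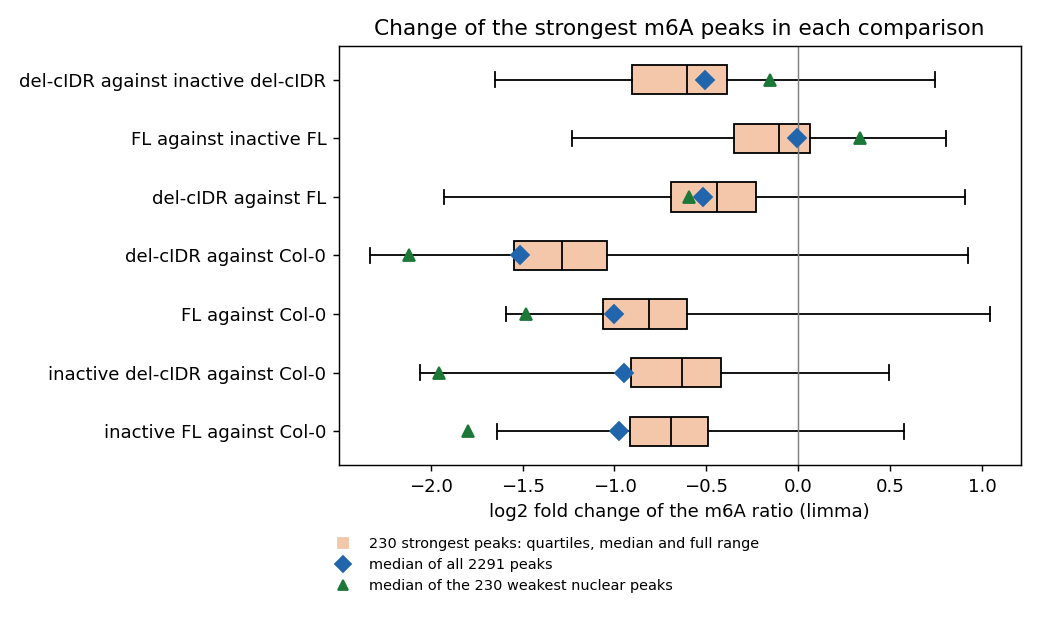
log2 fold change of the m6A ratio in 7 comparisons (rows); boxes show quartiles, median and full range of the 230 strongest peaks, diamonds the median of all 2291 peaks and triangles the median of the 230 weakest nuclear peaks. Against Col-0 the strongest peaks have medians of -1.28 in del-cIDR, -0.81 in FL, -0.64 in inactive del-cIDR and -0.69 in inactive FL. Each is nearer to 0 than the median of all peaks. The strongest and weakest peaks were chosen on these same libraries.

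These calls rest on the spike-in scale and on a few libraries. Counts with 1 library left out are given without the share of all peaks called in the same fit. They therefore do not set the strongest peaks apart from the rest. After each library was centred on its own median, 0 of the 230 were called in any comparison with Col-0, with 37 at an unadjusted p under 0.05 in del-cIDR (15.5% of all peaks), 18 in FL (8.47%), 38 in inactive del-cIDR (16.8%) and 30 in inactive FL (11.8%). Leaving out Col-0 replicate 1 gave 35 calls in del-cIDR, leaving out Col-0 replicate 2 gave 14, and leaving out replicate 2 of del-cIDR itself gave 10. In FL 132 of the 230 were called without FL replicate 2, 0 without FL replicate 1 or without either library of Col-0 or inactive FL, 2 without either del-cIDR library, and 14 and 15 without inactive del-cIDR replicate 1 and 2. In inactive del-cIDR 27 were called without its replicate 2, 16 without either FL library, 3 without del-cIDR replicate 1, 1 without Col-0 replicate 1 or either inactive FL library, and 0 without its replicate 1 or Col-0 replicate 2. In inactive FL the 1 call was lost without either of its own libraries or either Col-0 library, 15 were called without either FL library and 2 without either inactive del-cIDR library.

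The steepest falls in del-cIDR were on 1 peak in a single gene and 3 shared by neighbouring genes. On PHT4;3 (chromosome 3, 17306928 to 17307277), a plastid phosphate transporter, the m6A ratio was 4.46 and 1.68 in del-cIDR, 4.06 and 22.1 in FL, 4.72 and 14.97 in inactive del-cIDR, 5.75 and 9.22 in inactive FL, and 10.4 and 25.1 in Col-0. Del-cIDR held 2 of the 3 lowest values, and the log2 fold change against Col-0 was -2.33 (SE 0.58, adjusted p = 0.000326). A peak at chromosome 1, 29819064 to 29819335 lay in both ECT8 (AT1G79270), a YTH-domain m6A reader, and its neighbour AT1G79280. It had 5.28 and 2.51 in del-cIDR, 5.95 and 11.3 in FL, 6.55 and 10.3 in inactive del-cIDR, 6.45 and 11.5 in inactive FL, and 20.1 and 19.9 in Col-0, with -2.29 (SE 0.58, adjusted p = 0.000433) in del-cIDR. The Col-0 libraries almost coincided there and lay above all 8 others. A peak shared by AT2G42920 and AT2G42940 (chromosome 2, 17863113 to 17863401) had 8.14 and 3.84 in del-cIDR, 7.24 and 15.8 in FL, 12.4 and 27.8 in inactive del-cIDR, 12.5 and 16.2 in inactive FL, and 27.5 and 31.4 in Col-0, with -2.28 (SE 0.58, adjusted p = 0.000446). One shared by AT1G27920 and AT1G27921 fell by 2.21 in del-cIDR (adjusted p = 0.000667). For peaks shared by overlapping or neighbouring genes, the source transcript cannot be told apart.

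The few strong peaks called in the other lines were as follows. In FL the largest falls were on AT1G06960 (-1.59, SE 0.58, adjusted p = 0.0324), AT5G13240 (-1.54, SE 0.58, adjusted p = 0.0399), GAMMA-ADAPTIN 1, a subunit of the AP-1 coat of vesicles (-1.51, SE 0.58, adjusted p = 0.0434), and AT1G26130 (-1.49, SE 0.58, adjusted p = 0.045). GAMMA-ADAPTIN 1 had 4.34 and 3.83 in del-cIDR, 4.67 and 6.84 in FL, 4.40 and 12.3 in inactive del-cIDR, 9.01 and 12.2 in inactive FL, and 14.1 and 20.7 in Col-0, so Col-0 was above every other library. In inactive del-cIDR, besides AT4G08100 and AT5G27895, the calls included NDPK3, a nucleoside diphosphate kinase (-1.62, SE 0.58, adjusted p = 0.0265), and AT3G12130 (-1.50, SE 0.58, adjusted p = 0.0422). NDPK3 had 6.21 and 5.91 in del-cIDR, 7.88 and 13.5 in FL, 4.04 and 6.93 in inactive del-cIDR, 10.3 and 9.58 in inactive FL, and 21.1 and 14.3 in Col-0. In inactive FL the single call was AT1G35220, with 17.3 and 9.16 in del-cIDR, 11.4 and 21.2 in FL, 7.74 and 22.6 in inactive del-cIDR, 8.38 and 10.8 in inactive FL, and 23.7 and 40.1 in Col-0, at -1.64 (SE 0.58, adjusted p = 0.0256).

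A pair of peaks went the other way. The peak in AT3G31005 and AT3G31161 (chromosome 3, 12670158 to 12670493) had 14.2 and 10.6 in del-cIDR, 22.2 and 7.25 in FL, 11.6 and 4.29 in inactive del-cIDR, 14.1 and 4.91 in inactive FL, and 7.36 and 5.22 in Col-0. Both del-cIDR libraries were above both Col-0 libraries, but the difference of 0.93 (SE 0.58, adjusted p = 0.119) did not pass. A peak with under 50% of its length in AT2G13851 (chromosome 2, 5799617 to 5799866), had 9.61 and 6.93 in del-cIDR, 21.5 and 5.73 in FL, 13.96 and 3.94 in inactive del-cIDR, 13.3 and 4.71 in inactive FL, and 5.42 and 4.94 in Col-0, with 0.61 (SE 0.58, adjusted p = 0.299) in del-cIDR and 1.04 (SE 0.58, adjusted p = 0.14) in FL. They were the only 2 of the 230 with a positive log2 fold change in del-cIDR, and were chosen for mention after their values were seen.

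Between an active form and its inactive counterpart, and between the active forms, 0 of the 230 were called. In del-cIDR against inactive del-cIDR the background was 0.175% of all peaks called lower. The median log2 fold change was -0.60 for the 230 and -0.51 for all peaks, and 27 of the 230 had an unadjusted p under 0.05, all 27 lower, against 11.9% of all peaks lower at that p. Both del-cIDR libraries lay below both inactive libraries for 90 of the 230, against 40.0% of all peaks. The smallest p belonged to ATBCAT-5, a branched-chain aminotransferase (chromosome 5, 26318418 to 26318732), with 2.82 and 2.70 in del-cIDR, 5.21 and 26.9 in FL, 8.37 and 11.6 in inactive del-cIDR, 4.83 and 9.10 in inactive FL, and 10.7 and 16.6 in Col-0. Its del-cIDR libraries were the lowest of all 10, yet -1.65 (SE 0.58, adjusted p = 0.229) did not pass, nor did the peak on AT2G42920 and AT2G42940 at -1.63 (SE 0.58, adjusted p = 0.229). In FL against inactive FL the background was 0.218% called higher, the medians were -0.10 for the 230 and -0.01 for all peaks, and 1 of the 230 had an unadjusted p under 0.05, against 3.58% of all peaks. The 2 of smallest p, a peak with under 50% in AT4G04430 (-1.23, SE 0.58, adjusted p = 0.999) and one on AT2G27480 (-1.09, SE 0.58, adjusted p = 0.999), were not called. In del-cIDR against FL the background was 0.873% called lower, the medians were -0.44 and -0.52, and 12 of the 230 had an unadjusted p under 0.05, against 15.7% of all peaks. ATBCAT-5 (-1.93, SE 0.58, adjusted p = 0.0739) and PHT4;3 (-1.62, SE 0.58, adjusted p = 0.136) came nearest.

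The difference between the activity effects of both forms, del-cIDR against its inactive form minus FL against its inactive form, was also not called for any of the 230 (background 0.175% called lower). Its median was -0.48 for the 230 and -0.51 for all peaks, and 4 of the 230 had an unadjusted p under 0.05, against 6.55% of all peaks. The smallest p was again on ATBCAT-5 (-2.46, SE 0.82, adjusted p = 0.343), then on PHT4;3 (-1.82, SE 0.82, adjusted p = 0.666). Without FL replicate 1, 17 of the 230 were called in del-cIDR against FL and 3 in this interaction. Without either FL library 1 was called in del-cIDR against inactive del-cIDR, and without inactive del-cIDR replicate 1 there was 1 in del-cIDR against FL.

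Lists of known genes were looked up among the peaks; they were written with earlier results of these data known. None of the 5 m6A writer genes and none of the 5 demethylase genes carried a peak. Of 12 reader genes matched, 3 carried a peak and 1 strong peak lay on ECT8 and its neighbour. The light signalling (14 genes, 3 with a peak), clock (16 genes, 3 with a peak) and DNA methylation lists (12 genes, 1 with a peak) held none of the 230, nor did 12 peaks on nuclear photosynthesis genes, the light-harvesting, photosystem and Rubisco subunits. Among 15 genes of Polycomb and histone methylation 8 carried a peak, and 2 of those peaks were among the 230. Both were on subunits of the Polycomb complex PRC2 that deposits a repressive mark on histone H3: EMF2, which keeps seedlings from flowering early, and VRN2, which acts in vernalization.

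On EMF2 (chromosome 5, 20829151 to 20829447) the m6A ratio was 8.79 and 5.03 in del-cIDR, 7.77 and 17.6 in FL, 12.2 and 13.7 in inactive del-cIDR, 10.9 and 28.2 in inactive FL, and 15.9 and 26.8 in Col-0, with -1.56 (SE 0.58, adjusted p = 0.0131) in del-cIDR against Col-0. On VRN2 (chromosome 4, 9479498 to 9479810) it was 3.51 and 4.35 in del-cIDR, 7.11 and 17.2 in FL, 7.18 and 15.5 in inactive del-cIDR, 10.8 and 13.1 in inactive FL, and 21.5 and 16.9 in Col-0, with -2.14 (SE 0.58, adjusted p = 0.000963). The del-cIDR libraries were the lowest of the 10 on VRN2, and neither gene was called in another line. MAF1 (FLM), a MADS-box repressor of flowering (chromosome 1, 28959794 to 28960081), was the 1 strong peak among 7 on 18 flowering-time genes. It had 4.82 and 3.06 in del-cIDR, 7.05 and 12.3 in FL, 9.44 and 12.1 in inactive del-cIDR, 12.4 and 8.35 in inactive FL, and 15.4 and 14.4 in Col-0, again with del-cIDR lowest and called at -1.81 (SE 0.58, adjusted p = 0.00468). DCL4, the Dicer that makes trans-acting small interfering RNA, was the 1 strong peak among 3 on 20 RNA silencing genes. Its ratio was 10.7 and 6.21 in del-cIDR, 11.4 and 14.8 in FL, 9.79 and 12.98 in inactive del-cIDR, 8.39 and 14.4 in inactive FL, and 18.3 and 21.4 in Col-0, with -1.22 (SE 0.58, adjusted p = 0.0445) in del-cIDR.

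Of hormone and stress genes, HK3, a cytokinin receptor, had 7.72 and 4.97 in del-cIDR, 5.56 and 10.96 in FL, 9.40 and 12.4 in inactive del-cIDR, 9.84 and 10.6 in inactive FL, and 14.1 and 16.6 in Col-0, and was called lower in del-cIDR at -1.23 (SE 0.58, adjusted p = 0.0426). In the list of auxin and cullin ligase genes (8 matched, 6 with a peak), 3 had strong peaks. AXR1, a subunit of the enzyme that activates the ubiquitin-like modifier of cullins, had 18.97 and 8.65 in del-cIDR, 8.94 and 17.5 in FL, 10.6 and 22.2 in inactive del-cIDR, 15.02 and 11.5 in inactive FL, and 46.3 and 22.7 in Col-0, and was called at -1.30 (SE 0.58, adjusted p = 0.0336). ARF9, an auxin response factor, was called at -1.30 (SE 0.58, adjusted p = 0.0338). CUL1, the cullin scaffold of SCF ligases, had -0.76 (SE 0.58, adjusted p = 0.194) and was not called. SOS2, the protein kinase of the salt tolerance pathway, had 17.2 and 6.08 in del-cIDR, 4.79 and 17.5 in FL, 5.21 and 21.1 in inactive del-cIDR, 10.3 and 13.3 in inactive FL, and 14.6 and 16.8 in Col-0, so the genotypes overlapped, and -0.58 (SE 0.58, adjusted p = 0.322). On the immune list WRKY4 (-0.90, SE 0.58, adjusted p = 0.127) and TGA6, a bZIP factor of salicylic acid responses (-1.08, SE 0.58, adjusted p = 0.0713), were not called. A peak shared by AT2G42520 and the cold-regulated gene COR15B (AT2G42530) had -0.85 (SE 0.58, adjusted p = 0.151) and was also not called. Of the 12 distinct strong peaks on these lists other than that on ECT8, 7 were called lower in del-cIDR. That compares with 143 of the 230 as a whole and 79.8% of all 2291 peaks.

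Other strong peaks are grouped here by function after their names were seen, as examples of what the set holds and not as complete groups. Peaks on genes of vesicle traffic included, besides ARA7, those on ARA6, a plant-type RAB5 (-1.32, SE 0.58, adjusted p = 0.0313 in del-cIDR against Col-0), VPS54, a tethering subunit at the Golgi (-1.07, SE 0.58, adjusted p = 0.0745), VPS41, which tethers vacuolar membranes (-0.88, SE 0.58, adjusted p = 0.138), AT2G28390, the MON1 subunit of a RAB7 activator (-1.05, SE 0.58, adjusted p = 0.0784), and AT5G22780, an alpha-adaptin of the AP-2 coat (-1.24, SE 0.58, adjusted p = 0.0411). GAMMA-ADAPTIN 1 of the AP-1 coat had -1.93 (SE 0.58, adjusted p = 0.00266), and AT3G11130, the clathrin heavy chain, had -1.18 (SE 0.58, adjusted p = 0.0509). ARA6 had 4.58 and 3.65 in del-cIDR, 3.16 and 10.7 in FL, 8.71 and 13.7 in inactive del-cIDR, 12.8 and 10.6 in inactive FL, and 9.16 and 13.3 in Col-0. There FL and the inactive lines overlapped Col-0 while both del-cIDR libraries lay below it. Protein turnover was represented by UBP15, a ubiquitin protease (-1.33, SE 0.57, adjusted p = 0.0305), UPL6, a ubiquitin ligase (-1.56, SE 0.58, adjusted p = 0.0129), and CAND1, which exchanges SCF subunits (-0.92, SE 0.58, adjusted p = 0.121).

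Chromatin and RNA processing factors beyond the lists included HUB1, which ubiquitinates histone H2B. It had 6.57 and 5.42 in del-cIDR, 6.59 and 14.01 in FL, 9.39 and 16.9 in inactive del-cIDR, 7.43 and 10.3 in inactive FL, and 17.1 and 27.4 in Col-0, with -1.77 (SE 0.58, adjusted p = 0.00555). BLI, a partner of the Polycomb protein CLF, was called at -1.74 (SE 0.58, adjusted p = 0.00651), while the histone deacetylase HDA15 had -1.04 (SE 0.58, adjusted p = 0.0819). Of splicing factors, PRP39 was called at -1.44 (SE 0.58, adjusted p = 0.0204) and SMU1 had -0.99 (SE 0.58, adjusted p = 0.0951). Among cation exchangers, NHX6 of endosomes (-1.80, SE 0.58, adjusted p = 0.00477) and KEA4 (-1.55, SE 0.58, adjusted p = 0.0137) were called, and KEA2 of the chloroplast envelope had -1.05 (SE 0.58, adjusted p = 0.0786). Other phospholipases D were PLDP1, called at -1.97 (SE 0.58, adjusted p = 0.00223), and PLDBETA1 with -0.76 (SE 0.58, adjusted p = 0.196). Of these examples GAMMA-ADAPTIN 1 was also called lower in FL against Col-0, at -1.51 (SE 0.58, adjusted p = 0.0434).

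Input RNA of the genes under the strongest peaks is a separate measurement; whether the deposited m6A ratio was divided by it is not given in the sources used here. On the deposited scale 167 of the 203 host genes were called higher and 7 lower in del-cIDR than in Col-0, against 65.5% higher and 1.85% lower over all 30613 input features. In FL limma called 165 higher and 0 lower, against 75.5% and 1.47%, and 170 of the hosts had an unadjusted p under 0.05 in either direction, against 78.7% of all features. In inactive del-cIDR it was 47 higher and 32 lower, against 32.4% and 7.84%. In inactive FL it was 60 higher and 6 lower, against 16.9% and 3.12%. Of the 1771 host genes of other nuclear peaks, 74.6% were called higher and 4.74% lower in del-cIDR, and 73.0% and 2.48% in FL. It was 29.9% and 25.2% in inactive del-cIDR, and 22.4% and 8.13% in inactive FL. The whole table shifted with the host genes. The median log2 fold change over all features was 0.56 in del-cIDR, 0.67 in FL, 0.31 in inactive del-cIDR and 0.22 in inactive FL. Over the host genes it was 0.39, 0.36, 0.03 and 0.13 in the same lines. Over hosts of other peaks it was 0.36, 0.29, 0.02 and 0.07. With each library centred on its median the split turned round, to 7 higher and 99 lower in del-cIDR, against 8.13% higher and 21.1% lower over all features. It was 4 and 169 in FL (15.7% and 38.9% of all features), 15 and 129 in inactive del-cIDR (11.2% and 24.7%), and 6 and 67 in inactive FL (4.99% and 17.8%). Of the 1771 hosts of other nuclear peaks, centring gave 93 higher and 940 lower in del-cIDR, and 46 and 1572 in FL. It gave 136 and 1114 in inactive del-cIDR, and 48 and 840 in inactive FL. The direction for the host genes as a group therefore depends on the scale.

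Each active line also had more input RNA on the deposited scale than its inactive form. Between del-cIDR and inactive del-cIDR 145 host genes (71.4%) were called higher and 3 lower, against 28.7% and 2.76% of all features. Of the 1771 host genes of other nuclear peaks, 68.9% were called higher and 2.82% lower, so the strongest peaks did not stand apart. The medians were 0.37 for the hosts, 0.32 for hosts of other peaks and 0.27 for all features. After centring 50 were called higher and 12 lower, against 8.39% and 6.99% of all features. Of the 1771 other hosts, 355 were then higher and 136 lower. Between FL and inactive FL 135 were higher and 1 lower, against 58.1% and 0.751%, with medians of 0.21 and 0.43. Centring turned this to 2 higher and 149 lower, against 7.44% and 25.8%. Hosts of other peaks had 66.0% higher and 1.07% lower, and after centring 20 higher and 1295 lower of the 1771. In del-cIDR against FL 39 were higher and 26 lower, against 10.6% and 20.0%, with medians of 0.04 and -0.14. Centring gave 115 higher and 9 lower, against 26.4% and 11.0%. Hosts of other peaks had 24.2% higher and 17.1% lower, and after centring 1011 higher and 86 lower of the 1771. The input call was higher for the host of 107 of the 128 peaks on a single gene that were called lower for m6A in del-cIDR against Col-0, and lower for 4. Among the 79 such peaks not called for m6A, 64 hosts were called higher and 3 lower. In this comparison 167 of all 203 hosts and 65.5% of all 30613 features were called higher. A link between the m6A call and the input call was not tested.

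**Figure D5:**
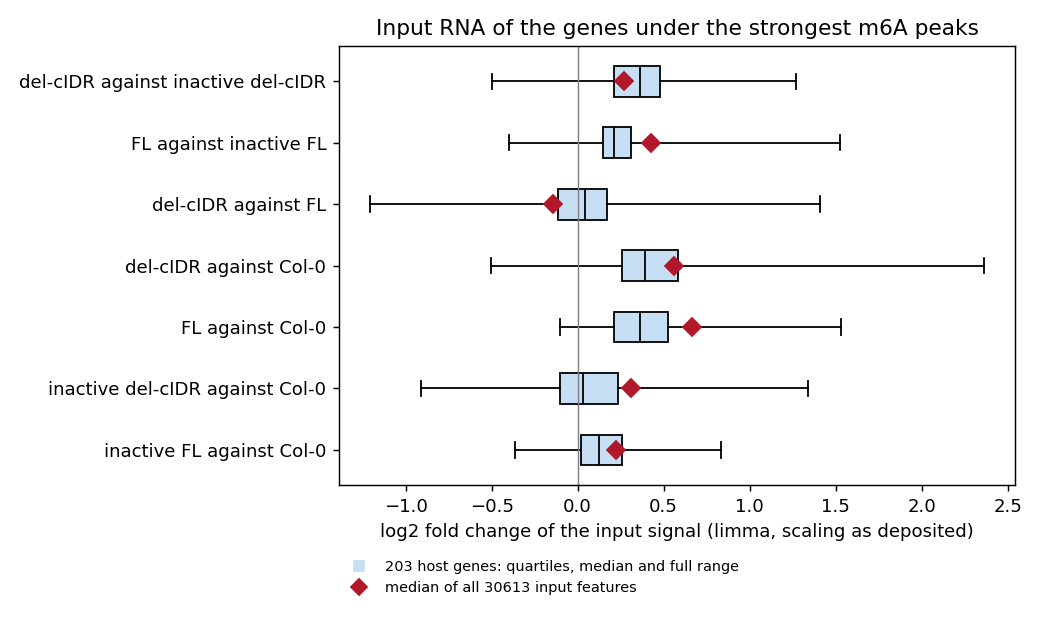
log2 fold change of the deposited input signal in 7 comparisons (rows) for the 203 genes under the strongest peaks; boxes show quartiles, median and full range, and diamonds the median of all 30613 features. The hosts have a median of 0.39 in del-cIDR against Col-0, where all features have 0.56, and of 0.37 in del-cIDR against inactive del-cIDR, where all features have 0.27.

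In del-cIDR against Col-0 the 2 largest changes in input RNA among the host genes were on pseudogenes, and exceeded the shift of the whole table. AT4G04410, under a broad peak on chromosome 4, had a signal of 2899 and 2817 in del-cIDR, 1065 and 1077 in FL, 1215 and 1145 in inactive del-cIDR, 979 and 987 in inactive FL, and 550.4 and 548 in Col-0. Its libraries agreed closely within each genotype, del-cIDR was far above the rest and Col-0 was the lowest. The log2 fold change was 2.36 (SE 0.06, adjusted p = 1.09e-37) in del-cIDR against Col-0 and 1.27 (SE 0.06, adjusted p = 6.96e-25) against inactive del-cIDR, and after centring 1.75 and 1.04. AT5G35935, which carries a pair of strong peaks, had 316 and 341 in del-cIDR, 251 and 218 in FL, 228 and 183 in inactive del-cIDR, 62.1 and 94.9 in inactive FL, and 64.7 and 90.3 in Col-0. Here inactive FL lay with Col-0, and the other 3 lines lay above, at 2.01 (SE 0.15, adjusted p = 1.7e-16) in del-cIDR, 1.53 (SE 0.15, adjusted p = 2.4e-12) in FL and 1.34 (SE 0.15, adjusted p = 1.51e-10) in inactive del-cIDR. AT5G34800, also with a pair, had 223 and 224 in del-cIDR, 121 and 120.3 in FL, 142 and 118 in inactive del-cIDR, 171 and 153 in inactive FL, and 119 and 112 in Col-0. It was higher in del-cIDR than in inactive del-cIDR (0.76, SE 0.14, adjusted p = 1.55e-05) and lower in FL than in inactive FL (-0.40, SE 0.14, adjusted p = 0.0138). AT5G28430 rose by 1.11 (SE 0.16, adjusted p = 7.91e-08) in del-cIDR against Col-0, and AT2G12460 by 1.04 (SE 0.17, adjusted p = 1.29e-06) in inactive del-cIDR. On all of these the m6A ratio was lower, not higher, in del-cIDR than in Col-0. That was not particular to them: the log2 fold change was below 0 for 228 of the 230 peaks and 2286 of all 2291.

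Other hosts rose in 1 or more of the lines. AT3G01845, the long non-coding RNA with the ninth strongest peak, had 40.2 and 37.8 in del-cIDR, 98.6 and 74.2 in FL, 36.8 and 23.3 in inactive del-cIDR, 42.5 and 44.1 in inactive FL, and 29.3 and 24.9 in Col-0, with 1.45 (SE 0.25, adjusted p = 2.52e-06) in FL against Col-0 and -1.01 (SE 0.25, adjusted p = 0.00152) in del-cIDR against FL. AT1G20400 had 1.39 (SE 0.16, adjusted p = 2.06e-10) and AT3G00220 1.36 (SE 0.24, adjusted p = 2.58e-06) in FL against Col-0. After centring these 3 were at 0.61, 0.55 and 0.52. AT1G08890 rose in del-cIDR, at 1.11 (SE 0.08, adjusted p = 2.8e-18) against Col-0 and 0.92 (SE 0.08, adjusted p = 7.09e-15) against its inactive form. AT1G29700, under the fourth strongest peak, was higher in inactive del-cIDR than in Col-0 (1.05, SE 0.16, adjusted p = 1.92e-07) and lower in del-cIDR than in inactive del-cIDR (-0.50, SE 0.16, adjusted p = 0.0109). SPPL4, a signal peptide peptidase-like protein, had 0.68 (SE 0.07, adjusted p = 1.05e-11) in inactive FL, and the pseudogenes AT4G04410, AT2G12460 and AT4G08114 had 0.83, 0.74 and 0.70. AT4G08109 and AT5G34810 were higher in del-cIDR than in its inactive form, at 0.87 and 0.91. In FL against inactive FL the highest were AT5G35935 (1.52), AT3G00220 (0.99), AT1G20400 (0.94) and AT5G28263 (0.93). After centring AT3G00220 (0.44) and AT5G28263 (0.39) were no longer called, while AT5G35935 had 0.98 and AT1G20400 0.39. In del-cIDR against FL ALDH11A3, a glyceraldehyde-3-phosphate dehydrogenase, had 0.49.

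On the deposited scale fewer hosts fell than rose in each line against Col-0. SRF4, a leucine-rich repeat receptor kinase, had 181 and 203 in del-cIDR, 431 and 448 in FL, 300.3 and 234 in inactive del-cIDR, 353 and 380.4 in inactive FL, and 246 and 307 in Col-0. It was lowest in del-cIDR, at -0.51 (SE 0.11, adjusted p = 0.000102) against Col-0 and -1.17 (SE 0.11, adjusted p = 5.89e-13) against FL. AT1G20390 had -0.37 in del-cIDR against Col-0 and -1.21 against FL, and AT5G22080 and AT1G27520 had -0.38 and -0.35 against Col-0. In inactive del-cIDR AT1G27520 fell by 0.91, AT5G22080 by 0.66, AT5G13240 by 0.61, and BPC6, a GAGA-binding factor, by 0.69 on the log2 scale. BPC6 had 649.8 and 637 in del-cIDR, 683 and 707 in FL, 417 and 480.4 in inactive del-cIDR, 624 and 637 in inactive FL, and 707 and 748 in Col-0. In inactive FL against Col-0 BSK1, a kinase of brassinosteroid signalling, had -0.37, AFH1, a formin, -0.25, RIP1, an organelle RNA editing factor, -0.23, and BPC6 -0.20. Each of these falls against Col-0 was called on the deposited scale. Centring moves every gene of a comparison by the same amount, so each fall against Col-0 became larger and each against FL smaller. That direction was fixed by the centring and says nothing about these genes. The falls against FL were still called.

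The activity effect on input RNA differed between the protein forms for part of the host genes. In the interaction 48 were called higher and 15 lower, against 6.15% and 13.9% of all features. The medians were 0.11 for the hosts and -0.19 for all features, and centring gave 123 higher and 3 lower, against 20.8% and 6.90%. Of the 1771 hosts of other nuclear peaks, 20.8% were called higher and 8.64% lower, with a median of 0.09. After centring 1052 of these were higher and 40 lower. The contrast with all features was therefore not particular to hosts of the strongest peaks.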

How the data were processed

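The authors deposited a ratio per m6A peak and a signal per gene for the input libraries. Per the submitters' processing notes, the build was TAIR10 and the tools included MACS2, bedtools, HISAT2, featureCounts, fastp, Picard and SAMtools, with no versions. The denominator of the ratio, the merging of peaks and the scaling of the signal are not given in the sources used here. In the deposited signal, 45 ERCC controls sum to 109313 to 110569 in all 10 libraries. Peak coordinates are printed as deposited.

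Spike-in features were set aside. Values were analysed as log2(value + 5th percentile of non-zero values: 0.542 for m6A, 6.94 for input). limma 3.58.1 (R 4.3.3) fitted 5 group means per table with a trend in the prior variance, on 2291 peaks and 30613 input features, and 37 m6A values are 0. A feature is called where its two-sided p, adjusted after Benjamini-Hochberg over the whole table, is under 0.05. The code was tested on simulated data with 1 spread for all features. In del-cIDR against Col-0 it called 15 of 100 peaks changed by 1 on the log2 scale, and 77 of 100 changed by 2. A peak that is not called may therefore still have changed. A host gene is the 1 gene of a TAIR10.1 gene table that holds at least 50% of the peak, and that table gives no strand or description. Figures used matplotlib 3.10.9.

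The members and gene lists were chosen with earlier results of these data known. Peaks were named as the 12 highest, up to 4 called per comparison and direction with separate libraries or else the 2 of smallest p, those at the boundary, the 4 widest, those on listed genes or on no gene, and genes with 2 or more. Host genes were named up to 4 per comparison and direction. Both tables hold 0 columns of other samples. A peak that this rule names is not reported here.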

Additional observations from a re-analysis of the deposited data

Results flagged for a closer look

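Input RNA of 63 host genes differed between the protein forms in the effect of activity, by the interaction in limma (del-cIDR against its inactive form minus FL against its inactive form, log2). Over all features 6.15% were called higher and 13.9% lower, and over the 1771 hosts of other nuclear peaks 20.8% and 8.64%. After centring 126 host genes were called, and 14 with a prior variance that has no trend. The 4 largest positive values were 1.20 on AT5G34810 (adjusted p = 0.0193), 1.16 on AT5G34800 (9.09e-06), 1.15 on AT4G04410 (1.64e-16) and 0.89 on AT1G08890 (3.08e-09). The 4 largest negative ones were -0.99 on AT5G28263 (0.0191), -0.86 on AT5G35935 (0.00259), -0.81 on AT1G20400 (0.00744) and -0.76 on NDL2, an N-MYC downregulated-like protein (7.87e-06). AT5G34810 had 41.8 and 52.4 in del-cIDR, 28.5 and 27.2 in FL, 22.5 and 20.9 in inactive del-cIDR, 38.7 and 32.7 in inactive FL, and 24.1 and 20.1 in Col-0. AT5G28263 had 47.01 and 63.6 in del-cIDR, 110.1 and 86.3 in FL, 57.6 and 56.7 in inactive del-cIDR, 42.8 and 53.2 in inactive FL, and 39.7 and 40.3 in Col-0, and NDL2 had 448 and 418 in del-cIDR, 505 and 466 in FL, 454 and 469 in inactive del-cIDR, 306 and 302 in inactive FL, and 303 and 259 in Col-0. On NDL2 the FL libraries lay above inactive FL while both del-cIDR libraries lay slightly below both of inactive del-cIDR. After centring, AT5G28263 and AT1G20400 were no longer called (adjusted p = 0.061 and 0.0763). Groups of 2 libraries were too small to look for single outlying values.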

How the results depend on the processing

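Centring each library on its median left 0 of the 230 peaks called against Col-0 in del-cIDR, FL, inactive del-cIDR and inactive FL. Host genes called in the input then numbered 62 in del-cIDR against inactive del-cIDR, 124 in del-cIDR against FL, 106 in del-cIDR, 144 in inactive del-cIDR against Col-0, and 126 in the interaction. With a prior variance that has no trend, calls numbered 0 in FL, 3 in inactive del-cIDR and 0 in inactive FL, and host genes numbered 56 in FL against inactive FL, 31 in del-cIDR against FL, 50 in inactive del-cIDR and 17 in inactive FL against Col-0, and 14 in the interaction. With only peaks of above-median mean, 0 were called in FL, inactive del-cIDR and inactive FL. A pseudocount of 1 gave 2 in inactive FL. For settings other than centring, shares over all peaks or features are not given here, so these counts describe the members alone. Choosing members by the mean of log2 values (220 shared), or, added after seeing the data, on libraries outside the contrast, kept every count within 1.5 times of its value, as did taking hosts by any overlap.

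Leaving out 1 library at a time gave 10 to 176 peaks called in del-cIDR, 0 to 132 in FL, 0 to 27 in inactive del-cIDR and 0 to 15 in inactive FL against Col-0, 0 to 1 in del-cIDR against inactive del-cIDR, 0 to 17 in del-cIDR against FL and 0 to 3 in the interaction. Host genes ranged over 75 to 139 in FL against inactive FL (75 without inactive FL replicate 1, 88 without FL replicate 1), 41 to 73 in del-cIDR against FL (41 without FL replicate 2) and 34 to 72 in inactive FL against Col-0 (34 without Col-0 replicate 2). A group left with 1 library is assumed to vary like the others. Shares over all peaks or features in these fits are not given here, so the counts describe the members alone. Of the peaks named for a comparison, none changed direction in any setting. All 13 that were called lost their call after centring, 6 with no trend and 9 with only peaks of above-median mean, as did 51 of their 130 values with 1 library left out. Of the named host genes, 4 lost their call after centring and 8 with no trend.

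With the replicate number as a block, 11 peaks were called in FL and 2 in inactive FL against Col-0, and no other count moved by over 1.5 times. Pairing by number was not established: across IP peaks, replicate differences correlated at 0.12 to 0.35 in the 6 pairs of groups without del-cIDR and at -0.23 to -0.12 in the 4 with it, and across input features at -0.04 to 0.10. A motif search was not run, for want of a genome. The cause of these shifts was not tested.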
